A study of Mus musculus with 9 samples.

Results

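Transcripts of 10 SOX transcription factor genes (Sox1, Sox2, Sox3, Sox4, Sox6, Sox8, Sox9, Sox10, Sox11 and Sox21) were followed in mouse ependymomas and control brains by droplet single-cell RNA sequencing. The members were taken by gene symbol, and all 10 of the 10 were found and had UMIs, among 32285 mouse genes listed and 26549 detected. A UMI (unique molecular identifier) stands for 1 captured transcript. The 5 tumor mice were EP ZFTA-RELA animals with the genotype label NestinCreERT2;Fus1, in which CreERT2 under Nestin control switches on the ZFTA-RELA fusion of human ependymoma in embryonic radial glia, the stem cells of the developing brain. The 4 control mice carried NestinCreERT2;TdT and no fusion, so both groups held the same Cre driver. All mice were 6 to 8 weeks old, and brain or tumor tissue was dissociated and sorted with DAPI and an antibody to the red cell antigen Ter119. The study's methods name an antibody to the leukocyte antigen CD45 as well, and whether CD45 was used to choose cells for these libraries was not given in the sources used here. Radial glia give rise to neurons and glia, so a class of cells in a tumor can hold both tumor and host cells, and these were not separated.

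SOX proteins bind DNA through an HMG box, a domain related to that of the testis-determining factor SRY, and they act together with partner proteins. SOXB1 proteins (Sox1, Sox2, Sox3) keep neural stem and progenitor cells undifferentiated, and Sox21 is a SOXB2 protein that counteracts them. SOXC proteins (Sox4, Sox11) act in newly formed neurons. Of the SOXE proteins, Sox9 directs glial fate and marks astrocytes and radial glia, whereas Sox10 and Sox8 act in the oligodendrocyte lineage. Sox6, a SOXD protein, acts in oligodendrocyte precursors and in several neuron types.

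A stretch of the HMG box is shown for each member because the box defines the family and its near copies could mix reads between members. It was read from the reference genome (GRCm38, the sequence of mm10), is 57 bases long, and is given 5′ to 3′ on the coding strand with the 27 bases that encode the conserved core in capitals. The SOXB members come first, then SOXC, SOXD and SOXE.
Sox1: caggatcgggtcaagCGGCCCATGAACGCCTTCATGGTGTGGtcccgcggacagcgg
Sox2: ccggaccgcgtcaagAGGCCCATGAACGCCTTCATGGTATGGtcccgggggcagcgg
Sox3: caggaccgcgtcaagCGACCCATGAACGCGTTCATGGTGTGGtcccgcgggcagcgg
Sox21: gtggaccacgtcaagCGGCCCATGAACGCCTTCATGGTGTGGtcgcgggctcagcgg
Sox4: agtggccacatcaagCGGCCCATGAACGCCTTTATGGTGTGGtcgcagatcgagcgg
Sox11: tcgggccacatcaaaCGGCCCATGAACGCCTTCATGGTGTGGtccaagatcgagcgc
Sox6: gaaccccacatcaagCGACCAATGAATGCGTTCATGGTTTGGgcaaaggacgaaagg
Sox8: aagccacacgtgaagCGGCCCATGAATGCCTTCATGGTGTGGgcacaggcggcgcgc
Sox9: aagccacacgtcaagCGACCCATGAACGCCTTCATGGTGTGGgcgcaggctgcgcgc
Sox10: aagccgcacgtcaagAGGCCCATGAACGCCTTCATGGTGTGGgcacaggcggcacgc
The 10 cores held 8 distinct sequences. Over the whole box of 237 bases, identity between members ran from 53.2% to 89.5% in the 45 pairs, with 89.5% for Sox4 and Sox11 and 89.5% for Sox1 and Sox2. The longest run shared exactly by 2 members was 48 bases. Reads of the members could be told apart outside such runs, and how the authors' counting treated reads that fit more than 1 gene was not given in the sources used here.

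In the annotation of the same build, 6 members were single-exon genes and 4 had several exons. Sox2 (chr3:34650405-34652461, plus strand) lies within the long non-coding RNA gene Sox2ot on the same strand, so reads in the shared part cannot be told apart by strand. Its box stretch, chr3:34650533-34650589, is in its only exon. Sox1 likewise overlaps Sox1ot and Gm25239 on its own strand. Genes on the opposite strand overlap Sox4 (Gm26735), Sox6 (Sox6os and Gm45025), Sox8 (2810468N07Rik) and Sox21 (Gm4675), and whether the authors' counting used strand was not given in the sources used here. Sox3 lies at chrX:60891366-60893430, Sox4 at chr13:28948919-28953713 and Sox11 at chr12:27334264-27342574, all 3 on the minus strand and each of 1 exon. Sox9 (chr11:112782224-112787760, plus strand) and Sox8 (chr17:25565892-25570686, minus strand) have 3 exons each, with the box stretch in exon 1. Sox10 (chr15:79154908-79165240, minus strand) has 5 exons and carries the stretch in exon 3, and Sox6 (chr7:115470872-116038796, minus strand) has 16 exons and carries it in exon 14.

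The 4 control libraries held 101060608 to 178086164 UMIs over 75222 to 86516 barcodes. The 5 tumor libraries held 14967680 to 69411387 UMIs over 9001 to 26341 barcodes, so the groups overlapped in neither. The part of library size and barcode number in the differences between the groups was not tested. After filtering, 20405 control and 15916 tumor cells were kept. Median UMIs per cell were 2032 to 4115 in controls and 2068 to 6512 in tumors. Values are given as CPM (UMIs per 1000000 UMIs, summed over the cells of a mouse), and gene against gene levels were not compared. Cells were assigned to classes by markers that held no SOX gene. In controls 52.0% to 71.8% of cells stayed without a class and 19.9% to 35.2% were neuron-like, against 3.05% to 27.2% and 0.234% to 25.7% in tumors. Of the control neuron-like cells, 82.9% lay near the limit of the gate. Median mitochondrial shares of the kept cells were 6.81% to 8.05% in controls and 9.87%, 7.36%, 4.68%, 2.11% and 3.11% in tumors 1 to 5, and their part in the differences between the groups was not tested. The 3000 lowest-UMI barcodes of each library were taken as free RNA. They had medians of 559 to 1338 UMIs, since the deposited matrices held no barcode under 468 UMIs, and whether they were empty droplets was not tested. In tumor 3, with 9001 barcodes in all, the same 3000 were also considered as cells. In controls Sox2 averaged 32.4 ± 5.1 CPM (SD, n = 4) there and 27.5 ± 0.73 CPM over the kept cells, whereas Sox11 averaged 22.5 ± 1.3 and 47.7 ± 2.5 CPM. Sox1, Sox3, Sox9, Sox10 and Sox21 also had higher control means in free RNA, for example Sox9 at 40.3 against 27.5 CPM. Sox4, Sox6 and Sox8 had lower ones, for example Sox6 at 12.3 against 19.5 CPM. In tumors Sox6, Sox9 and Sox21 had higher means in free RNA, with Sox9 at 105.5 against 100.8 CPM, and the other members lower ones. The fusion transcript was at 0 UMIs in all 4 controls and at 6, 235, 6, 699 and 314 UMIs in the kept cells of tumors 1 to 5, so tumors 1 and 3 carried few. Pairs of the 8 libraries with full barcode lists shared 1 to 9 barcodes of kept cells.

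The first comparison asked whether SOX transcripts differed between tumor and control over all kept cells. Of the 10 members, 9 were higher in tumors (edgeR quasi-likelihood test, adjusted p below 0.05 over 17599 genes), none was lower, and Sox21 was not called. Of all genes tested, 32.3% were called higher, 29.4% lower and 61.6% in either direction. The median log2 fold change of the 10 members was 2.06, beside 0.04 over all genes. How many of all genes showed no overlap between the groups was not counted, in this or the later comparisons. In such summed samples, more cells of a type and more RNA per cell cannot be told apart. The part of free RNA in these values was not tested.

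Among the SOXB1 genes, Sox2 was at 28.0, 28.3, 27.01 and 26.8 CPM in controls 1 to 4 and at 121.6, 161.3, 120.7, 218.9 and 203.6 CPM in tumors 1 to 5. Every tumor lay above every control, and the log2 fold change was 2.88 ± 0.31 (SE; edgeR adjusted p = 0.000169). Sox3 was at 1.2, 1.4, 1.8 and 1.2 CPM in controls and at 7.3, 50.3, 16.9, 82.0 and 45.2 CPM in tumors. The groups did not overlap, tumor 1 was the lowest of the tumors, and the log2 fold change was 5.24 ± 0.79 (edgeR adjusted p = 0.000612). Sox1 was at 8.3, 8.3, 9.3 and 8.4 CPM in controls and at 33.7, 12.03, 28.1, 5.4 and 67.4 CPM in tumors. Tumor 4 lay below all controls, and the log2 fold change was 1.98 ± 0.59 (edgeR adjusted p = 0.0154). The Sox1 call was lost with limma voom (1.44, adjusted p = 0.0827).

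The SOXC gene Sox4 was at 29.6, 30.7, 39.1 and 29.3 CPM in controls and at 93.7, 195.3, 420.3, 251.8 and 415.8 CPM in tumors, a log2 fold change of 3.35 ± 0.45 (edgeR adjusted p = 0.000354). Sox11 was at 49.3, 46.6, 50.3 and 44.7 CPM in controls and at 62.0, 85.6, 339.9, 57.5 and 281.5 CPM in tumors, a log2 fold change of 1.99 ± 0.54 (edgeR adjusted p = 0.0101). For both genes all tumors were above all controls, but the tumors split: tumors 3 and 5 were high for both, while tumors 1, 2 and 4 exceeded the highest control by far less for Sox11.

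Of the SOXE genes, Sox9 was at 26.9, 28.3, 27.5 and 27.2 CPM in controls and at 124.7, 128.3, 69.3, 60.2 and 121.5 CPM in tumors (log2 fold change 2.13 ± 0.28, edgeR adjusted p = 0.000334). Sox8 was at 14.9, 14.5, 11.7 and 13.8 CPM in controls and at 38.3, 36.9, 66.8, 172.2 and 38.2 CPM in tumors (log2 fold change 2.68 ± 0.56, edgeR adjusted p = 0.00283). Neither gene overlapped between the groups, and tumor 4 was the highest for Sox8 and the lowest for Sox9. Sox10 was at 13.4, 13.5, 13.3 and 13.7 CPM in controls and at 20.7, 31.1, 33.2, 52.3 and 8.4 CPM in tumors (log2 fold change 1.41 ± 0.46, edgeR adjusted p = 0.0240), with tumor 5 below every control. That call was lost when any 1 control was left out, with edgeR adjusted p of 0.0557 to 0.0575. The SOXD gene Sox6 was at 19.5, 18.9, 20.5 and 18.98 CPM in controls and at 40.2, 26.0, 44.5, 91.5 and 57.4 CPM in tumors, without overlap (log2 fold change 1.70 ± 0.37, edgeR adjusted p = 0.00344). Sox21 was at 5.6, 4.8, 3.3 and 4.4 CPM in controls and at 13.2, 3.1, 12.6, 10.6 and 3.0 CPM in tumors, so that tumors 2 and 5 lay below all controls (log2 fold change 1.10 ± 0.45, edgeR adjusted p = 0.0552). It was called without tumor 2 or tumor 5 (edgeR adjusted p = 0.0256 and 0.0180), and with 1 mouse left out the members called numbered 8 to 10.

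**Figure D1:**
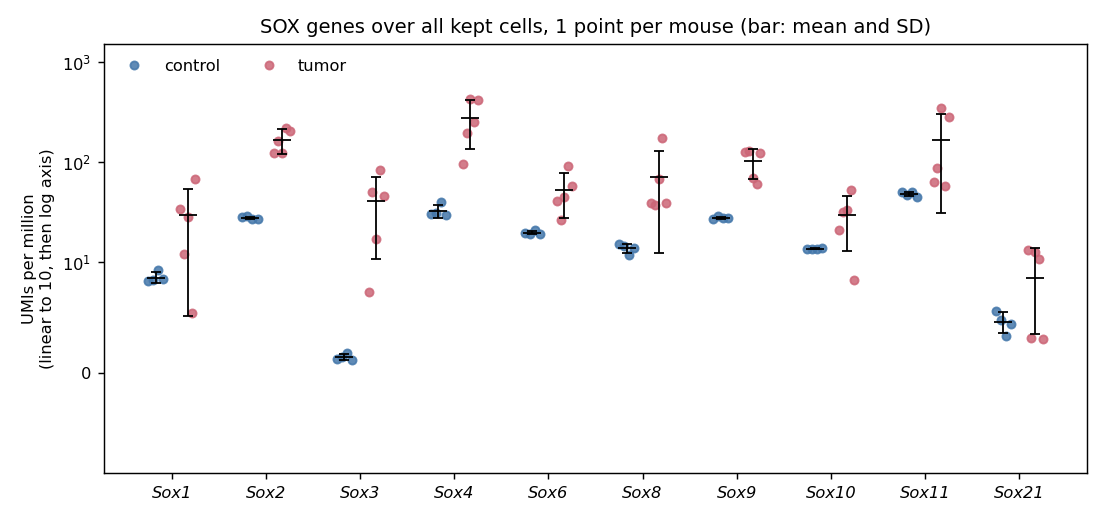
CPM of the 10 SOX genes over all kept cells, with controls in blue (4 mice) and tumors in red (5 mice). Each point is 1 mouse, the black bars are mean and SD, and the vertical axis is linear up to 10 CPM and logarithmic above. Sox2, Sox3, Sox4, Sox6, Sox8, Sox9 and Sox11 showed no overlap between groups, and the controls lay close together. The share of all genes without overlap was not counted.

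The comparison was also made without the neuron-like and unclassed cells, the bulk of the control cells, an alternative added after the data were seen. Unclassed cells differed between the groups, with Sox2 at 25.2 ± 3.0 CPM in controls (SD, n = 4) and 219.5 ± 55.8 CPM in tumors (n = 5). Their median neuron marker UMIs per cell were 23, 40, 38 and 45 in controls 1 to 4. In tumors 1 to 5 they were 9, 3, 3, 2 and 2, so the unclassed cells of the groups were not alike in markers. Without the neuron-like and unclassed cells fewer UMIs and fewer genes entered the fit. The part of cell makeup and of depth in the change was not tested. Then 5962 of 13762 genes were called, 3215 of them higher, and of the 10 members 4 were called higher: Sox3 (log2 fold change 4.24 ± 0.75, edgeR adjusted p = 0.00218), Sox8 (1.79 ± 0.49, edgeR adjusted p = 0.0141), Sox4 (1.79 ± 0.42, edgeR adjusted p = 0.00763) and Sox2 (1.72 ± 0.27, edgeR adjusted p = 0.00129). The values of Sox9 (0.78 ± 0.30), Sox11 (1.53 ± 0.61), Sox6 (0.70 ± 0.32), Sox1 (0.87 ± 0.60) and Sox10 (0.30 ± 0.41) no longer passed, with edgeR adjusted p of 0.0550, 0.0671, 0.101, 0.267 and 0.581. Leaving out the OPC-like and neuroblast-like cells instead (OPC, oligodendrocyte precursor cell) called 10807 of 17581 genes, 5733 of them higher, and 8 of the members, and gave log2 fold changes of 1.20 for Sox11 (edgeR adjusted p = 0.00445) and 1.02 for Sox10 (edgeR adjusted p = 0.108).

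The list counts that follow stand beside 32.3% of all genes called higher and 29.4% called lower in this comparison. Of other SOX genes, 5 of the 7 tested of 9 listed were higher over all kept cells and 1 was lower. The largest were Sox14, a SOXB2 gene of neurons, with a log2 fold change of -5.13 ± 0.71, and the SOXF genes of blood vessels Sox18 (3.95 ± 0.98) and Sox17 (3.39 ± 0.81). Of 10 glial partner factors, 8 were higher and none lower, led by Olig2 (4.09 ± 0.64) and Olig1 (3.75 ± 0.65), which specify the oligodendrocyte lineage. Of 6 POU factors, some of which bind DNA beside SOX proteins, 3 were higher and 2 lower. Of 6 genes listed as associated with SOXC factors, 2 were higher (Tead2, 5.93 ± 0.73, and Mex3a, 3.37 ± 0.55) and 1 was lower, Stmn2, a marker of neurons (-2.03 ± 0.50). Sox2ot, which overlaps Sox2, was at a log2 fold change of -0.06 and was not called.

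The second comparison placed the members among the cells of the tumors. Each of 12 classes was set against the unweighted mean of the others within the same tumors. Of 120 member and class pairs, 34 were called higher and 32 lower, against 15.9% and 11.0% of all gene and class pairs. Without tumor 2 the pairs called higher numbered 17, and without tumor 4 they numbered 21. All genes called varied too, for example from 971 to 2713 in OPC-like cells over the fits run. The classes came from at most 5 tumors, and only mice with at least 50 cells of a class entered.

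**Figure D2:**
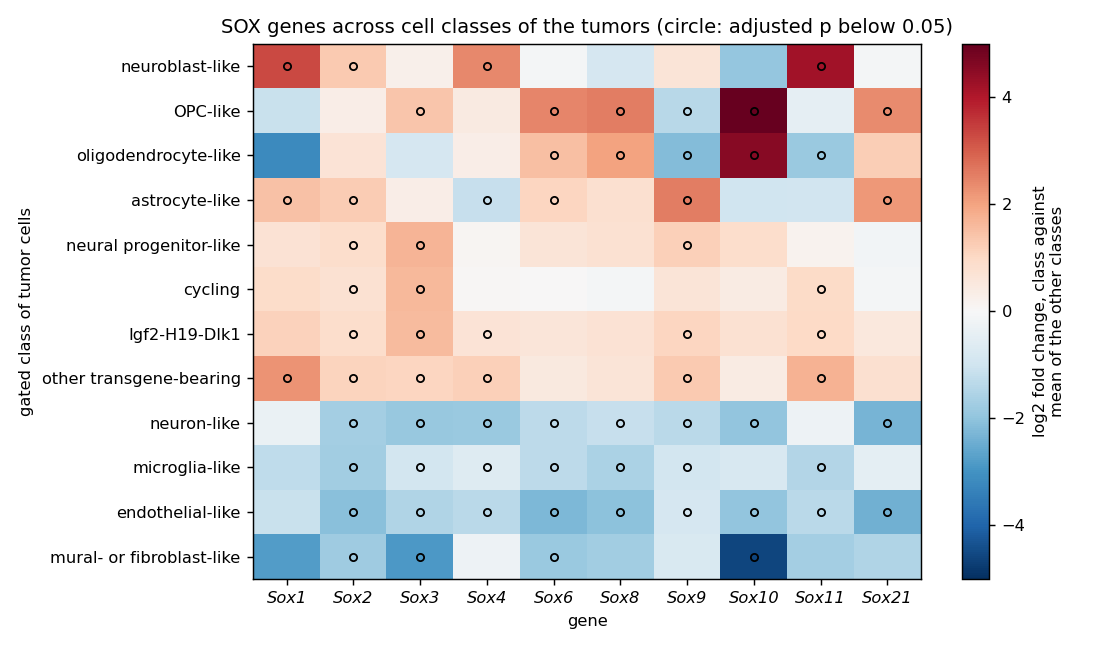
Log2 fold change of each SOX gene (columns) in each class of tumor cells (rows) against the mean of the other classes, from red (higher) to blue (lower), with a circle where the edgeR adjusted p was below 0.05. Sox11 and Sox4 peaked in neuroblast-like cells, Sox10 in OPC-like and oligodendrocyte-like cells, Sox9 in astrocyte-like cells, and the 4 lowest rows, neuron-like, immune and vascular cells, held no gene called higher.

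Neuroblast-like cells, gated in at least 50 cells in tumors 3, 4 and 5 only, held the highest SOXC levels, with 4 members called higher against 15.1% of all genes. Sox11 was at 2310.7, 653.1 and 763.8 CPM there, and the log2 fold change against the other classes was 4.19 ± 0.32 (edgeR adjusted p = 5.7e-12). Sox4 was at 1935.9, 1072.1 and 856.5 CPM (2.42 ± 0.25, edgeR adjusted p = 6.5e-09). For both, the lowest neuroblast-like value lay above the highest value of every other class. Sox1 (3.30 ± 0.49) and Sox2 (1.30 ± 0.26) were also higher, and Sox10 was at 0.0, 4.5 and 2.3 CPM. These 4 calls held under every alternative run, but the log2 fold change of Sox1 was 1.90 without tumor 4 and that of Sox2 was 0.82 without tumor 3. In cells thinned to 2000 UMIs each, with shallower cells left out (18 of 952), 69.6% of neuroblast-like cells had a Sox11 UMI (95% exact interval 66.5% to 72.5%), against 84.9% before thinning. The cells were pooled over mice, and 764 of the 952 came from tumor 5. The share in thinned microglia-like cells, an immune class that should lack the gene, was 3.90%. Intervals cover counting error only.

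In the oligodendrocyte lineage Sox10, Sox8 and Sox6 were higher. OPC-like cells had 5 members called higher and 1 lower, against 10.3% and 5.42% of all genes. Oligodendrocyte-like cells had 3 higher and 2 lower, against 16.1% and 12.3%. Sox10 in OPC-like cells was at 220.4, 402.0, 308.0 and 318.2 CPM in tumors 2 to 5 (5.17 ± 0.34, edgeR adjusted p = 1.1e-14), and in oligodendrocyte-like cells at 169.4, 170.1 and 405.3 CPM in tumors 1, 2 and 4 (4.56 ± 0.37, edgeR adjusted p = 1.6e-12). The ranges of these classes overlapped with each other and with no other class. Sox8 was higher in OPC-like (2.56 ± 0.30) and oligodendrocyte-like cells (2.02 ± 0.37). Sox6 was at 100.4, 359.3, 372.8 and 191.8 CPM in OPC-like cells (2.45 ± 0.27, edgeR adjusted p = 4.6e-09). In oligodendrocyte-like cells it was at 17.6, 20.1 and 352.5 CPM, and its log2 fold change of 1.51 ± 0.33 turned to -0.61 without tumor 4. The oligodendrocyte-like cells of tumor 4 held a median of 23 OPC marker UMIs per cell, against 0 in tumors 1 and 2, and 37 of its 111 cells lay near the limit of the gate. The part of OPC-like cells in the Sox6, Sox8 and Sox10 values of this class was not tested. Sox21 (2.37 ± 0.44) and Sox3 (1.37 ± 0.31) were higher in OPC-like cells as well. Sox9 was lower in both, with log2 fold changes of -1.39 ± 0.36 in OPC-like and -2.19 ± 0.46 in oligodendrocyte-like cells, and the OPC-like call was lost without tumor 4. Sox11 was lower in oligodendrocyte-like cells (-1.87 ± 0.60), a call lost without tumor 1 or 2. Thinned to 2000 UMIs, 44.7% of OPC-like cells had a Sox10 UMI (70.1% unthinned), against 0.54% of neuroblast-like cells.

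Astrocyte-like cells had 5 members called higher and 1 lower, against 16.1% and 9.71% of all genes. They had the highest mean Sox9 level, at 324.7, 338.6, 461.8, 163.4 and 226.1 CPM in tumors 1 to 5 (2.57 ± 0.22, edgeR adjusted p = 8.0e-12). Sox21 (2.17 ± 0.38), Sox1 (1.45 ± 0.45), Sox2 (1.29 ± 0.21) and Sox6 (1.09 ± 0.28) were higher as well. Sox4 was lower (-1.15 ± 0.27, edgeR adjusted p = 0.00148). The Sox1 call was lost without tumor 1 or 2 and the Sox6 call without tumor 2. The lowest tumor for Sox9, tumor 4, overlapped with the next classes in order, other transgene-bearing and neural progenitor-like cells.

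Sox3 had its highest mean levels in neural progenitor-like (91.5 ± 19.7 CPM, SD, n = 3), cycling (80.8 ± 13.1, n = 3), Igf2-H19-Dlk1 (76.3 ± 16.5, n = 4) and OPC-like cells (76.0 ± 30.2, n = 4). Igf2-H19-Dlk1 cells were gated on UMIs of those 3 genes, and the ranges of neighbours in this order overlapped. In neural progenitor-like, cycling and Igf2-H19-Dlk1 cells the Sox3 log2 fold changes were 1.71 ± 0.28, 1.62 ± 0.27 and 1.58 ± 0.26 (edgeR adjusted p = 8.7e-05, 1.5e-05 and 3.2e-05), and without tumor 2 that in neural progenitor-like cells did not pass (1.20, edgeR adjusted p = 0.127), nor did the calls of Sox2 and Sox9 there. Neural progenitor-like and cycling cells had 3 members called higher each, against 8.15% and 17.2% of all genes, and Igf2-H19-Dlk1 cells had 5, against 9.97%. Sox2 was called higher in these 3 classes as well as in neuroblast-like, astrocyte-like and other transgene-bearing cells. In cycling cells it stood at 214.8, 210.8 and 200.6 CPM in tumors 2, 4 and 5. Of the calls in cycling cells, that of Sox2 was lost without tumor 2, 4 or 5 and that of Sox11 without tumor 1, 2, 4 or 5, with edgeR adjusted p up to 0.463 and 0.328. In Igf2-H19-Dlk1 cells the calls of Sox2 and Sox9 were lost without tumor 2, that of Sox11 without tumor 1, 2, 3 or 4, and that of Sox4 without any 1 of the 5 tumors, with edgeR adjusted p up to 0.247, 0.109, 0.547 and 0.192. The Sox3 calls in these 2 classes held with each tumor left out. Other transgene-bearing cells, those with a UMI of the fusion, luciferase or IRES sequence and no other class, were higher in 6 members, against 2.7% of all genes: Sox1 (2.24 ± 0.50), Sox11 (1.74 ± 0.36), Sox9 (1.30 ± 0.28), Sox4 (1.17 ± 0.27), Sox2 (1.12 ± 0.26) and Sox3 (1.09 ± 0.32). All 6 calls were lost without tumor 2 and without tumor 4. Over the fits run, 12 to 731 of all genes were called in either direction in other transgene-bearing cells. In neural progenitor-like cells the range was 94 to 2137 genes. The losses of SOX calls were not compared with those of all genes.

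In neuron-like, immune and vascular classes no member was called higher. Endothelial-like cells were lower in 9 members (17.8% of all genes), neuron-like cells in 8 (26.8%), microglia-like cells in 7 (21.0%), and mural- or fibroblast-like cells in 4 (7.38%). With 1 tumor left out, calls were lost for Sox9 (without tumor 1 or 2), Sox10 (1 or 4) and Sox21 (3) in endothelial-like cells, for Sox8 (1) and Sox10 (1, 2 or 3) in neuron-like cells, for Sox3 (5) and Sox4 (2, 4 or 5) in microglia-like cells, and for Sox6 (5) in mural- or fibroblast-like cells. The edgeR adjusted p of these losses reached 0.245, for Sox4 without tumor 2. Microglia-like cells of tumors still held Sox4 at 83.8, 50.9, 161.4, 88.2 and 123.1 CPM, where the free RNA of the tumors averaged 147.7 ± 84.5 CPM (n = 5).

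The tumors differed in their makeup by these classes. Neuroblast-like cells were 5.58% and 21.0% of kept cells in tumors 3 and 5 and between 0.169% and 1.11% in tumors 1, 2 and 4. They held 71.6% and 66.03% of all Sox11 UMIs in tumors 3 and 5, and 48.5% and 50.1% of the Sox4 UMIs. In tumors 2 and 4 they held 14.0% and 13.5% of the Sox11 UMIs. Without the OPC-like and neuroblast-like cells, Sox11 was at 57.6, 74.8, 108.2, 51.2 and 127.05 CPM in tumors 1 to 5, so tumors 3 and 5 still had the highest levels. The part of cell makeup in the differences between tumors was not tested further. OPC-like cells were 8.20% of tumor 4 and held 36.7% of its Sox10 UMIs. In tumor 1 oligodendrocyte-like cells held 63.1% of the Sox10 UMIs. Without the OPC-like and neuroblast-like cells Sox10 was still highest in tumor 4, at 35.7 CPM.

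**Figure D3:**
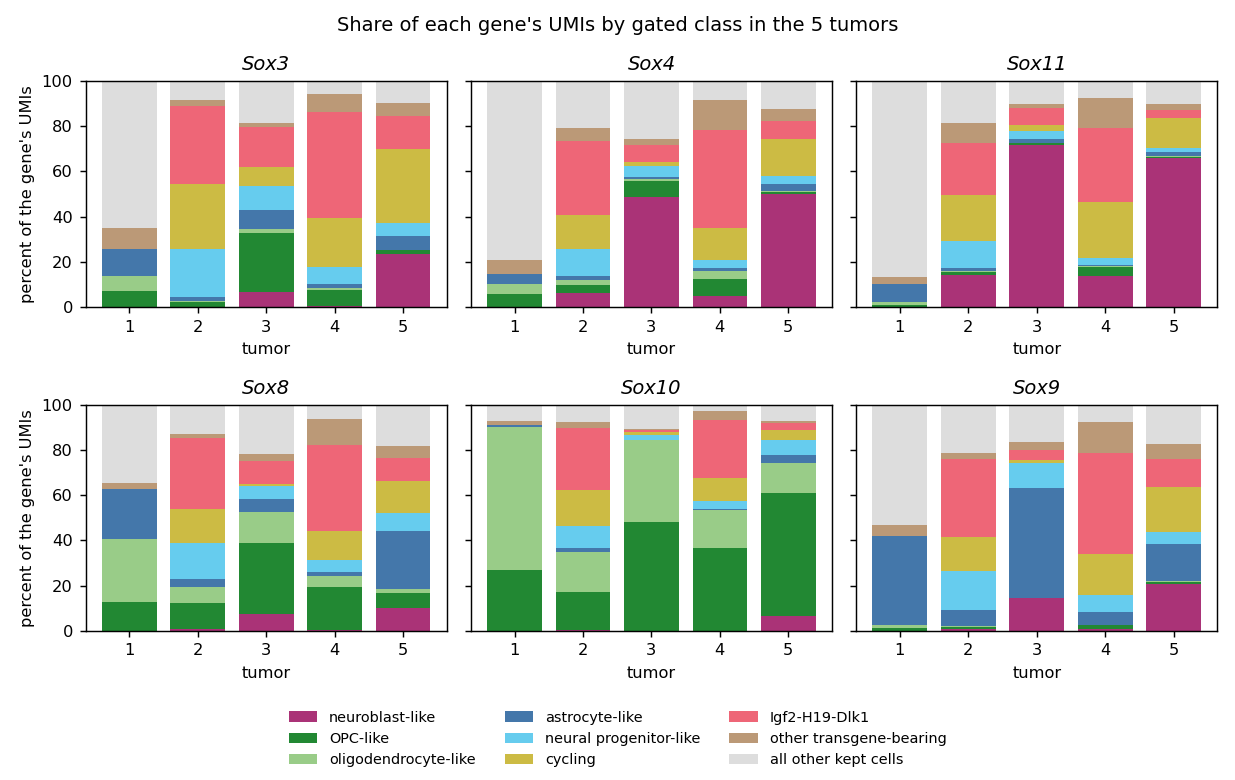
Percent of the UMIs of 6 SOX genes that came from each gated class in tumors 1 to 5 (stacked bars to 100%, grey for all other kept cells, classes under 20 cells counted in grey). Neuroblast-like cells held most Sox11 UMIs in tumors 3 and 5, and oligodendrocyte-lineage cells most Sox10 UMIs in tumors 1, 3, 4 and 5.

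The same comparison within controls had fewer cells, with 5 classes and 45 tested pairs. It called 12 pairs higher and 10 lower, against 15.7% and 12.4% of all gene and class pairs. Astrocyte-like cells were higher in 7 members (10.6% of all genes), led by Sox9 (2.90 ± 0.16), Sox21 (2.77 ± 0.47) and Sox1 (2.59 ± 0.36). Oligodendrocyte-like cells (7.91% of all genes higher) were higher in Sox8 (2.76 ± 0.37), Sox10 (2.75 ± 0.35) and Sox2 (1.31 ± 0.30), and came from controls 2 and 4 only. Microglia-like cells (18.1%) were higher in Sox4 (1.96 ± 0.16), at 83.0, 131.2, 141.4 and 109.6 CPM, above the free RNA of controls (26.0 ± 0.8 CPM, n = 4). Neuron-like cells (35.1%) were higher in Sox11 alone (0.76 ± 0.17), at 49.7 ± 5.81 CPM (n = 4), a range that overlapped with that of astrocyte-like cells (48.8 ± 14.6 CPM, n = 4). The lower pairs were Sox10 in astrocyte-like cells (6.23% of all genes lower), Sox2, Sox6, Sox8 and Sox9 in microglia-like cells (14.1%), and Sox2, Sox4, Sox8, Sox9 and Sox10 in neuron-like cells (32.0%). With 1 control left out, the lower calls of Sox10 in astrocyte-like cells (without control 3 or 4), Sox2 and Sox8 in microglia-like cells (2 or 4), and Sox8 (2) and Sox10 (4) in neuron-like cells were lost, as were the higher calls of Sox8 (3) and Sox11 (4) in astrocyte-like cells. The edgeR adjusted p of these losses reached 0.462, for Sox8 in microglia-like cells without control 2, and the Sox8 log2 fold change in neuron-like cells went from -1.35 to -0.50 without control 2. With only the 5000 largest barcodes considered, 3 pairs were called higher. All genes called varied too, for example from 816 to 1977 in astrocyte-like cells over the fits run.

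The third comparison was made between tumor and control within cells gated on the same markers. The limit of the gate was set from the free RNA of each library, so it differed between mice. Its part in the differences was not tested. In astrocyte-like cells, 8 members passed the filter on low counts and 3 were higher in tumors, against 17.6% of 7625 genes. Sox2 was at 134.3, 87.3, 160.7 and 88.9 CPM in controls and at 226.5, 235.1, 332.4, 276.1 and 285.5 CPM in tumors, without overlap (log2 fold change 1.26 ± 0.25, edgeR adjusted p = 0.00208). Sox8 was at 33.6, 30.7, 32.5 and 27.2 CPM in controls and at 55.8, 47.4, 56.0, 136.1 and 109.2 CPM in tumors, also without overlap (1.46 ± 0.36, edgeR adjusted p = 0.00712). Sox4 was at 50.4, 33.0, 42.7 and 24.7 CPM in controls and at 27.9, 122.9, 58.0, 142.6 and 151.4 CPM in tumors, with tumor 1 within the control range (1.53 ± 0.47, edgeR adjusted p = 0.0225). Astrocyte-like cells held 119101, 423762, 491609 and 404916 UMIs over all genes in controls 1 to 4, and 463716 to 1446350 in tumors. The control values of Sox4 and Sox8 therefore rested on few UMIs. The Sox4 call was lost without control 2, 3 or 4 or tumor 5 (edgeR adjusted p of 0.0516 to 0.0933).

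Sox9 in astrocyte-like cells averaged 197.8 ± 39.9 CPM in controls and 302.9 ± 114.4 CPM in tumors (0.69 ± 0.30, edgeR adjusted p = 0.0873), and of the alternatives run passed only without tumor 4 (0.86, edgeR adjusted p = 0.0204). Sox6 (0.65 ± 0.27), Sox1 (0.24 ± 0.67), Sox11 (-0.16 ± 0.43) and Sox21 (-0.33 ± 0.47) were not called. With a mitochondrial limit of 10% in place of the mixture, none of the 3 calls held, while the log2 fold changes were 1.08 for Sox2, 1.94 for Sox4 and 1.45 for Sox8. Of these cells, pooled over mice, 25.9% in controls and 28.0% in tumors lay near the limit of the gate. By mouse they ran from 10 of 56 cells in control 1 to 41 of 103 in control 2. In tumors they ran from 20 of 196 cells in tumor 3 to 65 of 128 in tumor 4. Their median neural progenitor marker UMIs per cell were 1 to 2 in controls and 1, 5, 4, 17 and 3 in tumors 1 to 5. A transgene UMI was seen in 0.0% to 1.72% of these cells in controls and in 5.25%, 22.9%, 4.59%, 60.9% and 23.9% in tumors 1 to 5. The part of tumor cells that passed the gate in the Sox2, Sox4 and Sox8 values was not tested. Olig1, an oligodendrocyte-lineage factor, was higher in the same cells (2.88 ± 0.66), as was Nfix (0.90 ± 0.27), 2 of 7 glial partner factors tested. Of 4 genes tested from the SOXC-associated list, Tubb3, Stmn1 and Stmn2 were lower in tumors, as were 16.1% of all genes (-1.90 ± 0.47, -1.37 ± 0.34 and -3.35 ± 0.69). Median neuron marker UMIs per astrocyte-like cell were 11, 19, 16 and 21 in controls 1 to 4 and 3, 3, 1, 1 and 1 in tumors 1 to 5, and their part in these differences was not tested. Free RNA moved in the same direction, with Sox2 at 32.4 ± 5.1 CPM in controls (n = 4) and 116.3 ± 43.8 CPM in tumors (n = 5), Sox8 at 8.98 ± 2.32 and 56.4 ± 54.03 CPM, and Sox4 at 26.0 ± 0.8 and 147.7 ± 84.5 CPM. Its part in the astrocyte-like differences was not tested.

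**Figure D4:**
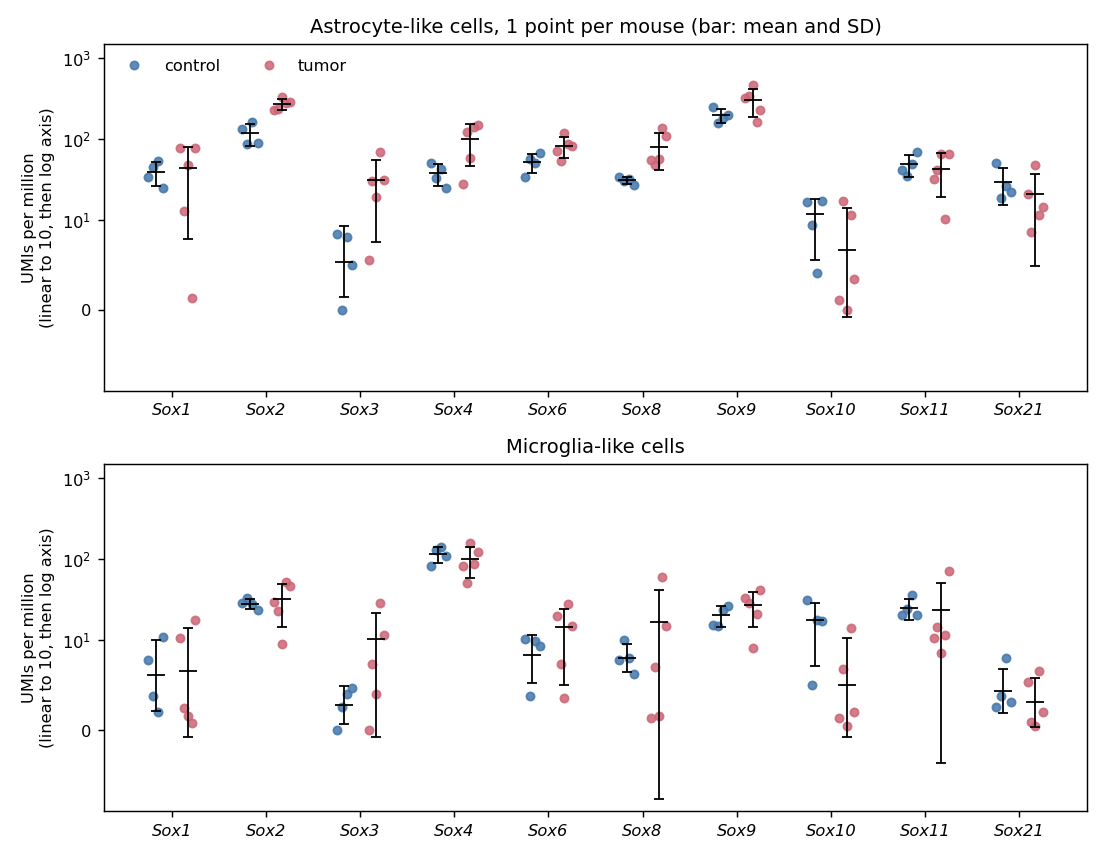
CPM of the 10 SOX genes in astrocyte-like cells (top) and microglia-like cells (bottom), with 4 controls in blue and 5 tumors in red, black bars for mean and SD, and an axis linear up to 10 CPM and logarithmic above. In astrocyte-like cells the Sox2 and Sox8 points of the tumors lie above all controls, while in microglia-like cells the groups overlap for every gene.

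In microglia-like cells 5 members were tested and none was called, against 45.9% of 9379 genes called in either direction. For these cells 4958 genes had an unadjusted p below 0.05, and DESeq2 also called no member. The log2 fold changes were 0.62 ± 0.45 for Sox2, 0.19 ± 0.29 for Sox4, 0.80 ± 0.41 for Sox9, -1.04 ± 0.78 for Sox10 and 0.27 ± 0.61 for Sox11. Without tumor 3, Sox2 (0.97, edgeR adjusted p = 0.0204) and Sox9 (1.13, edgeR adjusted p = 0.00550) were called. In oligodendrocyte-like cells, where 2 controls and 3 tumors had enough cells, 4 members were tested and none called, as was none of the 7232 genes (0.0%) by edgeR, although 1671 had an unadjusted p below 0.05 and DESeq2 called 391. Sox10 was at 96.8 and 100.9 CPM in controls 2 and 4 and at 169.4, 170.1 and 405.3 CPM in tumors (1.45 ± 0.49, edgeR adjusted p = 0.156). Sox4 was at 30.8 and 17.5 CPM in those controls and at 55.0, 149.9 and 427.4 CPM in tumors (3.23 ± 0.96, edgeR adjusted p = 0.132), and DESeq2 called it (3.21, adjusted p = 0.0264). Oligodendrocyte-like cells of controls 2 and 4 held 227280 and 227924 UMIs over all genes, so their Sox4 values rested on few UMIs. Neither gene overlapped between the groups, which carries little weight with 2 controls and 3 tumors, and how many of all genes did so was not counted. Without tumor 4, the highest for both, edgeR called both (0.97 for Sox10 and 2.29 for Sox4, adjusted p = 0.0161 and 0.0194), as it then did 1702 of 5808 genes, 825 of them higher. Median OPC marker UMIs per oligodendrocyte-like cell were 0.5 and 0 in controls 2 and 4, 0 in tumors 1 and 2, and 23 in tumor 4, where 32.4% of these cells had a transgene UMI. Endothelial-like cells reached 30 to 34 per control, and at a minimum of 20 cells no member of the 3 tested was called, while 2036 of 7230 genes were. Sox4 was at a log2 fold change of 1.15 ± 0.55 there (edgeR adjusted p = 0.141).

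The last comparison divided the non-immune, non-vascular cells of each tumor by whether a transgene UMI was seen, with the tumor as a block. Cells with such a UMI numbered 76, 908, 98, 3647 and 1156 in tumors 1 to 5. Those of tumor 1 held 294368 UMIs over all genes, so the Sox3 and Sox10 values there rested on few UMIs. Of the 10 members, 1 was higher and 1 lower in cells with a transgene UMI, against 7.32% and 11.4% of 15222 genes. Sox3 was at 27.2, 82.8, 48.8, 92.5 and 63.0 CPM with and at 7.7, 50.4, 24.4, 71.3 and 41.2 CPM without a transgene UMI, higher in 5 of 5 tumors (log2 fold change 0.81 ± 0.15, edgeR adjusted p = 0.00553). Sox10 was at 10.2, 42.9, 36.3, 46.6 and 2.8 CPM with and at 27.2, 39.9, 64.8, 120.9 and 14.6 CPM without, lower in tumors 1, 3, 4 and 5 (-0.89 ± 0.28, edgeR adjusted p = 0.0477). That call was lost on leaving out tumor 1, 3, 4 or 5, with edgeR adjusted p of 0.101 to 0.172.

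Sox1 (0.50 ± 0.16), Sox2 (0.47 ± 0.17), Sox4 (0.59 ± 0.21) and Sox11 (0.31 ± 0.16) did not pass, and all 4 passed when no filter on low counts was used. Sox9 (0.25 ± 0.12), Sox6 (0.05 ± 0.20), Sox8 (-0.06 ± 0.15) and Sox21 (-0.27 ± 0.30) were not called either. Median UMIs per cell were higher with a transgene UMI in every tumor, for example 7020 against 5358 in tumor 4, and oligodendrocyte- or OPC-like cells were a smaller share of the cells with a transgene UMI in every tumor, for example 7.60% against 30.0% in tumor 4. Neuron-like cells, in which Sox3 averaged 6.85 ± 6.15 CPM (n = 4 tumors), were also a smaller share of the cells with a transgene UMI in every tumor, at 11.8% against 32.8%, 2.42% against 14.3%, 3.06% against 25.3%, 0.219% against 0.472% and 1.56% against 8.57% in tumors 1 to 5. A transgene UMI was also seen in 2.14%, 8.25%, 0.826%, 25.2% and 11.9% of microglia-like cells and in 0.0%, 5.10%, 1.12%, 22.7% and 17.6% of endothelial-like cells of tumors 1 to 5. Whether the allele was expressed in these immune and vascular classes was not tested. A cell with such a UMI was not taken to be a tumor cell on that ground alone. The part of depth, of cell makeup and of free RNA in these differences was not tested.

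**Figure D5:**
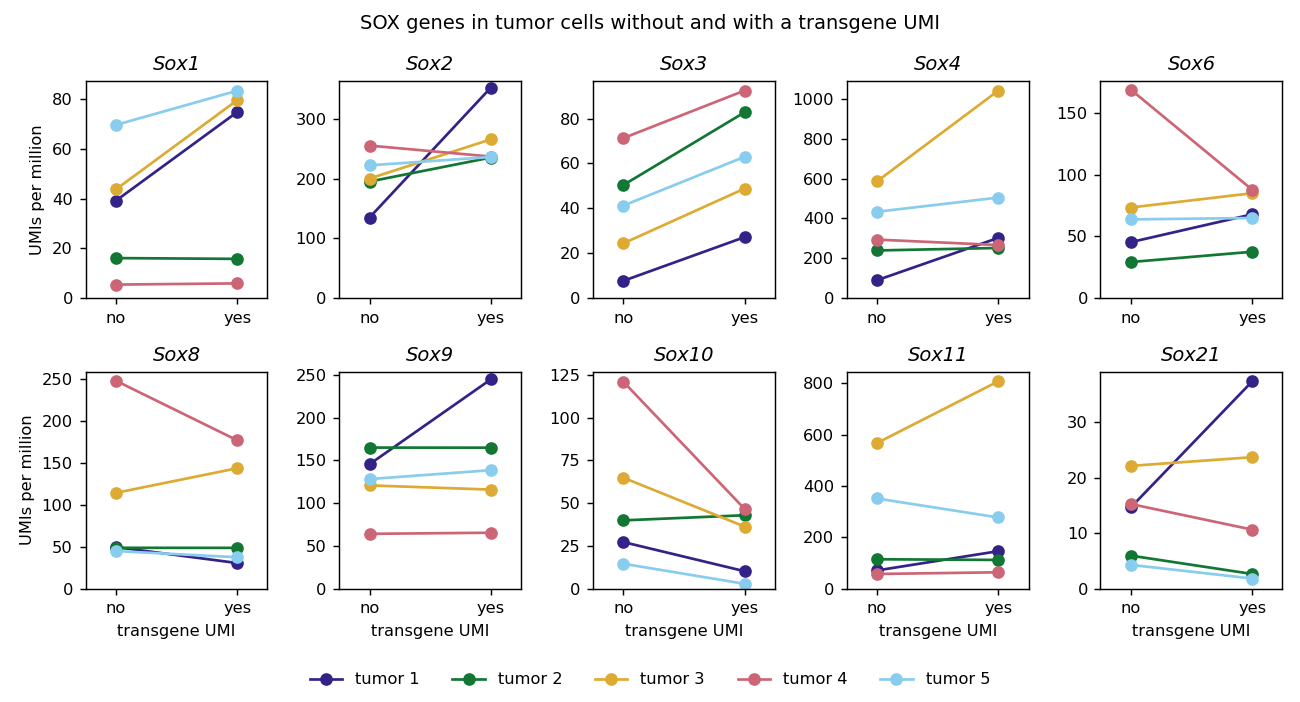
CPM of each SOX gene in tumor cells without (left) and with (right) a transgene UMI, with 1 line per tumor and an axis from 0. Sox3 rises from left to right in all 5 tumors, and Sox10 falls in tumors 1, 3, 4 and 5.

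Detection of pairs of members in the same cell was described in the cycling, Igf2-H19-Dlk1 and other transgene-bearing cells of the tumors only, with every other class left out, neuroblast-like and oligodendrocyte-lineage cells included. In 5859 such cells thinned to 2000 UMIs, Sox11 was seen in 19.5% of cells with a Sox4 UMI and in 11.5% of cells without, with the same order in all 5 tumors. Sox10 was seen in 7.94% of cells with and 3.64% of cells without Sox8, an order seen in tumors 2, 3 and 4, with no Sox10 UMI in tumor 1 and the opposite order in tumor 5. For Sox10 and Sox9 the order was opposite, with 2.54% against 4.78%, and so it was in tumors 2 to 5. A Sox10 UMI was seen in only 3 cells of tumor 3 and 5 cells of tumor 5, so the Sox10 orders there rested on few cells. Sox3 was seen in 14.6% of cells with and 14.5% of cells without Sox2. These shares describe cells of 5 mice, with 3311 of the cells from tumor 4, and carry no test.

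Genes whose levels were most like each member were named over 63 samples of a class and mouse by Pearson correlation of log2(CPM + 10). The points share libraries and depth, so the values are descriptions. Sox9 was most like Slc1a3, an astrocyte glutamate transporter (r = 0.89), Fgfr3 (0.87) and Ezr (0.83). Sox8 was most like Lrrn1 (0.88), Olig2 (0.88) and Olig1 (0.86). Sox6 was most like Ampd3 (0.85), Ptprz1 (0.84) and Bcan (0.82), of which Ptprz1 and Bcan encode proteins of glial cells and their matrix. Sox11 was most like Gm17750 (0.81), Ccnd2 (0.81), a cyclin, and Mex3a (0.78). Sox4 was most like Marcksl1 (0.91), Prmt1 (0.90) and Ddah2 (0.89), and Sox2 was most like Rhobtb3 (0.90), Tspan3 (0.89) and Nfix (0.88). Sox1, Sox3, Sox10 and Sox21 had 20 UMIs in too few of these samples to be compared.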

How the data were processed

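Single-cell 5′ expression libraries of 5 tumor and 4 control mice were used. The deposited values are UMI counts per gene and barcode, made by the authors with Cell Ranger (6.1.2 in the matrix headers, 7 in the submitters' processing notes, which also name Scanpy 1.8.2) on mm10, without normalization. In control 4 the barcode list is shorter than the matrix, so barcodes were used by column.

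The 10000 barcodes with most UMIs entered (all 9001 in tumor 3), limited to 200 to 6000 genes. Low-quality barcodes were removed with a mixture model of 2 Gaussians fitted to mitochondrial share and gene number (scikit-learn 1.9.0). After doublet removal 1721, 5121 and 3645 cells were kept in tumors 3, 4 and 5, where a mitochondrial limit of 10% left 4287, 9177 and 9138 cells. In tumors 1 and 2 and in every control the limit left fewer cells. It left, for example, 1254 against 2366 cells in tumor 1 and 5052 against 6365 cells in control 1. The barcodes with the highest Scrublet scores (Scanpy 1.11.5) were dropped as doublets, at a rate rising by 0.8 percentage points for each 1000 barcodes. A cell joined the class with at least 3 markers seen and marker UMIs at least 2 times those expected from free RNA, at a Poisson p below 0.001. The free RNA was that of the cell's own library. The gate was chosen with the data in view, and class names may differ from those of the study. Remaining cells were called cycling, Igf2-H19-Dlk1 or transgene-bearing in that order.

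Counts were summed per mouse and class (at least 50 cells), and edgeR 4.0.16 in R 4.3.3 was used for quasi-likelihood tests with TMM, low-count filtering and Benjamini-Hochberg adjustment over all genes at 0.05. Fits within tumors or controls had the mouse as a block. The scripts were tested on simulated data. Alternatives used DESeq2 1.42.0, limma 3.58.1, other scalings, filters and gates, and each mouse left out. Each library is labelled as 1 mouse's sample, and p-values of tumor against control measure the spread between these samples. In fits with the mouse as a block, they measure the spread left after the mouse and the class or pool are fitted. The class fits held 44 samples of a class and mouse in tumors and 17 in controls, with that spread taken over all classes. All 10 members were to be named in each comparison, and in comparisons of classes the pairs not called, and those called lower in neuron-like, immune and vascular tumor cells, are given by count. List genes are given by count with up to 3 of the largest called changes, and 3 most-alike genes per member. Members and lists were chosen with earlier results of these data known.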

Additional observations from a re-analysis of the deposited data

Results flagged for a closer look

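Of 80 groups of 4 or 5 mice examined, 10 held a mouse whose gap to its neighbour was large for the range of its group, where chance gives about 1 in 20. Tumor 3 supplied 4 of them. In its Igf2-H19-Dlk1 cells Sox11 was highest at 559 CPM (next 88.4), Sox4 highest at 713 CPM (next 333) and Sox2 lowest at 196 CPM (next 236), and in its OPC-like cells Sox4 was highest at 744 CPM (next 292).

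Tumor 4 was highest for Sox8 over all kept cells at 172 CPM (next 66.8) and in microglia-like cells at 59.7 CPM (next 14.96). Tumor 5 was highest for Sox11 in microglia-like cells at 71.4 CPM (next 14.4). Control 3 was highest over all kept cells for Sox1 at 9.28 CPM (next 8.43) and for Sox4 at 39.1 CPM (next 30.7). Control 2 was lowest for Sox6 in microglia-like cells at 3.79 CPM (next 9.40), from 3 UMIs.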

How the results depend on the processing

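Over all kept cells the count of members called was 9, and it was 4 without the neuron-like and unclassed cells, an alternative chosen after seeing the data. In microglia-like cells it was 0, against 1 each without a filter on low counts, with a mitochondrial limit of 10% and without doublet removal, and 0 to 2 with 1 mouse left out (2 without tumor 3). All genes called there numbered 3859 to 5639 over the fits run, and 4305 of 9379 in the main fit. In astrocyte-like cells the count of members was 3, 0 with the mitochondrial limit (958 of 7473 genes), and 2 to 4 with 1 mouse left out. In oligodendrocyte-like cells it was 0 (0 of 7232 genes), against 1 with DESeq2 (391 genes), 1 with the mitochondrial limit (449 of 6118 genes), 2 at a minimum of 20 cells (1234 of 4351 genes) and 0 to 2 with 1 mouse left out (2 without tumor 4). Pairs called higher within tumors numbered 34, and 17 to 35 with 1 tumor left out. Those within controls numbered 12, 3 with 5000 barcodes, and 8 to 12 with 1 control left out. All genes called also varied over the fits run. They ranged, for example, from 971 to 2713 in OPC-like cells of tumors and from 816 to 1977 in astrocyte-like cells of controls. The changes in pairs are therefore not a result about the members alone. By transgene the count of members was 2, against 1 with limma voom, 6 without a filter, 1 with the mitochondrial limit and 1 to 3 with 1 tumor left out. All genes called by transgene numbered 1355 to 3941 over the fits run. The cause of these changes was not tested.

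Log2 fold changes that reversed were Sox11 in microglia-like cells (-0.19 with limma voom, -0.14 with library size only, -0.65 to 0.60 with 1 mouse left out), Sox4 there (-0.22 with library size only), and in astrocyte-like cells Sox1 (-0.53 with limma voom, -0.10 to 0.56 with 1 mouse left out) and Sox11 (-0.40 to 0.11 with 1 mouse left out). Sox6 in oligodendrocyte-like cells of tumors ran from -0.61 to 1.99 with 1 tumor left out, and Sox2 in microglia-like cells of controls was 0.37 with 5000 barcodes. By transgene, Sox6 was -0.036 with limma voom, -0.051 with library size only, -0.00031 with 5000 barcodes and -0.055 to 0.37 with 1 tumor left out. Sox8 was 0.028 without a filter, 0.13 with the mitochondrial limit and -0.16 to 0.056 with 1 tumor left out.

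With the replicate number as a block, 8 members were called over all kept cells (of all genes, 9242 of 19461), 1 in microglia-like (4609 of 11619), 3 in astrocyte-like (2647 of 10359) and 2 in oligodendrocyte-like cells (767 of 8661), Sox11 in microglia-like cells was -0.58 and Sox1 in astrocyte-like cells -0.65. Same-numbered mice did not deviate together, with correlations of -0.0090 to 0.053. Tumors differed far more from each other than controls did, so these correlations cannot exclude a smaller shared effect. With 5000 barcodes the astrocyte-like and oligodendrocyte-like fits were not run, and the endothelial-like fit could be made only at a minimum of 20 cells. Scaling by library size moved the median of all genes by -0.24 over all kept cells and by -0.43 in microglia-like cells.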
